A study of Mus musculus with 30 samples.

Results

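The regions described here carried an H3K27ac peak in Tnm2 cells grown with UNC0638 and in none of the other 3 peak lists of the study. H3K27ac is acetylation of lysine 27 of histone H3. The 4 lists came from a pair of established mouse lines of lung adenocarcinoma. CK1750 and Tnm2 were both cultured with either DMSO, the vehicle, or 1 µM UNC0638, in the same medium, and the labels give no treatment time. UNC0638 inhibits the histone methyltransferases G9a and Glp, and the study compared treated with untreated cells to ask how chromatin responds to that inhibition. The intervals of the 4 lists that overlapped or touched on 20 chromosomes (1 to 19 and X) were joined into 37671 regions. Of these, 941 were chosen by the lists in which a peak was present: a Tnm2 UNC0638 peak and no peak of CK1750 DMSO, CK1750 UNC0638 or Tnm2 DMSO. They made up 2.5% of all joined regions and 5.47% of the 17214 regions with a Tnm2 UNC0638 peak. Each of the 941 consisted of 1 peak. Presence and absence in the lists are therefore the rule and not a result, and nothing below tests them.

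The series holds 30 samples, of which 9 were H3K27ac samples in 4 groups and 21 were not analysed here. Tnm2 was represented by 2 treated and 2 untreated samples, and CK1750 by 2 treated samples with a single replicate number and 3 untreated ones with 2 numbers. Each group had 1 list, taken to be pooled by the authors, so there is no replicate spread and no test between groups. The lists held 27340 peaks for CK1750 DMSO, 24592 for CK1750 UNC0638, 30631 for Tnm2 DMSO and 18789 for Tnm2 UNC0638 on the 20 chromosomes. Read depth is unknown. Intervals in brackets are at the 95% level by Wilson's method and reflect counting error alone. A promoter was the stretch within 1 kb of an annotated transcription start site (TSS) of any gene type. As a check of the label, 4 of 5 epithelial markers (Cdh1, Krt8, Krt18 and Krt19) had a promoter peak in each list, and the 3 leukocyte and 2 endothelial markers had none. Of 3 lung markers, Nkx2-1 had a promoter peak in all 4 lists and Sftpb in Tnm2 UNC0638 alone, and the other had none. The Sftpb promoter peaks are among the regions chosen by the rule, so that entry is not an independent check. Of 3 fibroblast markers, Col1a1 had one in each list except Tnm2 UNC0638, and the others had none.

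Acetylation of this lysine is placed by acetyltransferases at active promoters and enhancers, whereas the mono- and dimethylation of lysine 9 made by G9a and Glp is a mark of repressed chromatin. Promoters in mammals are often rich in CpG and GC boxes, bound by Sp factors. Enhancers lie in introns and between genes and carry sites for factors such as AP-1, TEAD and, in lung epithelium, NKX2-1. In lung adenocarcinoma, lineage factors of the alveolar epithelium and the gastrointestinal genes that can replace them are a well known axis of cell state.

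Sequences of 9 regions are printed on the plus strand of GRCm38 (mm10), up to 300 bases each, with capitals at matches to 13 short motifs searched on both strands. Matches of different motifs could overlap. The first 6 are the central bases of high-scoring regions, shown since they have the highest scores outside annotated UTRs and differ in kind. They are chr2:40556430-40556729 in the pseudogene Gm13456, chr5:81024137-81024436 in an intron of Adgrl3, chr3:106487102-106487401 at Dennd2d, chr2:84637869-84638168 at Ctnnd1, chr11:54960006-54960305 in an intron of Tnip1 and chr6:31102741-31103040 in the noncoding RNA Lncpint. The last 3 lie at the surfactant gene Sftpb (chr6:72303987-72304286 and chr6:72306887-72307186) and at the collagenase gene Mmp13 (chr9:7271859-7272158), and were added after their values had been seen.
Gm13456: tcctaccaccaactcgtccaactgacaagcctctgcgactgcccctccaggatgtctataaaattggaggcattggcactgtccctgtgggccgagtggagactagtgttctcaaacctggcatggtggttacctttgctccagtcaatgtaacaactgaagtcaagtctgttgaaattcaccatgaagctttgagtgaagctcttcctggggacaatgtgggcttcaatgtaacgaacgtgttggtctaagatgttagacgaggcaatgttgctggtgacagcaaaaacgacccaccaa
Adgrl3: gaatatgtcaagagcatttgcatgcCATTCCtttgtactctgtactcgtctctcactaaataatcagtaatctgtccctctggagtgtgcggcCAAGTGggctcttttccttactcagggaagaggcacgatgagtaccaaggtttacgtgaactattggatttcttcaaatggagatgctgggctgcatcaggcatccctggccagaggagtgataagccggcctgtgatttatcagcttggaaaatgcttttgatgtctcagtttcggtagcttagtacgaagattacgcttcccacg
Dennd2d: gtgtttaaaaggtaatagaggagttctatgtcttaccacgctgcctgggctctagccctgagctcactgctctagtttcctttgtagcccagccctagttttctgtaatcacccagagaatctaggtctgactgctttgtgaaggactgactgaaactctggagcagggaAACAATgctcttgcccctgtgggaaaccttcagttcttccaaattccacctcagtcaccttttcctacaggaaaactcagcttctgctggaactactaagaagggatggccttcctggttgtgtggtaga
Ctnnd1: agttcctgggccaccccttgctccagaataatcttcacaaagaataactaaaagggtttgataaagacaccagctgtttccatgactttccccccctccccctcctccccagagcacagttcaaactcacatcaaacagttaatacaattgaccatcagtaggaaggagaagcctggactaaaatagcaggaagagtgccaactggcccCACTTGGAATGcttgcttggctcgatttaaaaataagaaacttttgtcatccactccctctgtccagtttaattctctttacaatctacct
Tnip1: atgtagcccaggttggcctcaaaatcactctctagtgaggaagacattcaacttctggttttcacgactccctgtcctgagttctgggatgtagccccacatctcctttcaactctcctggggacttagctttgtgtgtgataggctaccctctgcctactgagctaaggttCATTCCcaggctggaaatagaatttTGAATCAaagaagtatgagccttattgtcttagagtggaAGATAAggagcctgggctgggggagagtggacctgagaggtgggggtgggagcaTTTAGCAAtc
Lncpint: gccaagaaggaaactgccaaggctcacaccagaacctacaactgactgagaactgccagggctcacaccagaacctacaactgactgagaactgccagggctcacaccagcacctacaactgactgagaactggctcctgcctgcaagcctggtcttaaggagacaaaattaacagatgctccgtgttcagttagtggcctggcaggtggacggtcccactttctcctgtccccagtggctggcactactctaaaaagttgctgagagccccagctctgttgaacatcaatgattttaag
Sftpb upstream: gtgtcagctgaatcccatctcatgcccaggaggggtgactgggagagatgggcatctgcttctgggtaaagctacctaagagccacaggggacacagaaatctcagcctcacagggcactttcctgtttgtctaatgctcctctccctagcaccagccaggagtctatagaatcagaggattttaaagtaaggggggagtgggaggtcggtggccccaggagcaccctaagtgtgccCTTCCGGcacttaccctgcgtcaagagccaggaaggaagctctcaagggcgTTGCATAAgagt
Sftpb intron: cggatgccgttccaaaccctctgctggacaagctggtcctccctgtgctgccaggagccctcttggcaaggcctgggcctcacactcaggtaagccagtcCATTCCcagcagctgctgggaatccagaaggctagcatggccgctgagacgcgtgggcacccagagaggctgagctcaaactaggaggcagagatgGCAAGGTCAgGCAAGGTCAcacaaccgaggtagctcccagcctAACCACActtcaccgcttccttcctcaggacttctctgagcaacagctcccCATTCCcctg
Mmp13: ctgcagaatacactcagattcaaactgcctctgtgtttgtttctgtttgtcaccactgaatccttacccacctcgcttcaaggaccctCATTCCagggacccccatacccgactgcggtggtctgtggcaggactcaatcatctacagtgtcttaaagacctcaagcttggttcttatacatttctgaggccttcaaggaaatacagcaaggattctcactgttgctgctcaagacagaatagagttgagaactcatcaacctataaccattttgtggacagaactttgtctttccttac
The Gm13456 and Lncpint stretches held no match to any of the 13 motifs. The Tnip1 stretch held 1 match each for AP-1, TEAD, CEBP and GATA, the Adgrl3 and Ctnnd1 stretches 1 each for TEAD and NKX2, and the Dennd2d stretch 1 for SOX. In Ctnnd1 the TEAD and NKX2 matches share a base. The upstream Sftpb stretch held 1 CEBP and 1 ETS match, the intronic one 2 TEAD, 2 ARE and 1 RUNX, and the Mmp13 stretch 1 TEAD. A match is a description of the letters and not evidence of binding.

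The 941 regions were among the weakest of their list. Scores are −10 log10 P from the authors' peak caller, and peaks under a score of 50 were not listed. Member scores ran from 50.02 to 162.51 with a median of 59.43, whereas the other 17848 Tnm2 UNC0638 peaks had a median of 125.9. Of the members, 487 (51.8%) scored under 60, 304 (32.3%) from 60 to 75, 125 (13.3%) from 75 to 100 and 25 (2.66%) at 100 or over. Read the other way, members made up 22.7% of Tnm2 UNC0638 peaks scoring 50 to 55 (285 of 1256), 11.6% of those from 60 to 75 and 4.49% of those from 75 to 100. They were 24 of 3309 peaks (0.725%) from 100 to 150 and 1 of 1855 from 150 to 200. None of the 5749 peaks at 200 or over was found in Tnm2 UNC0638 alone. The 613 peaks shared with CK1750 but not with Tnm2 DMSO had a median score of 64.21.

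**Figure D1:**
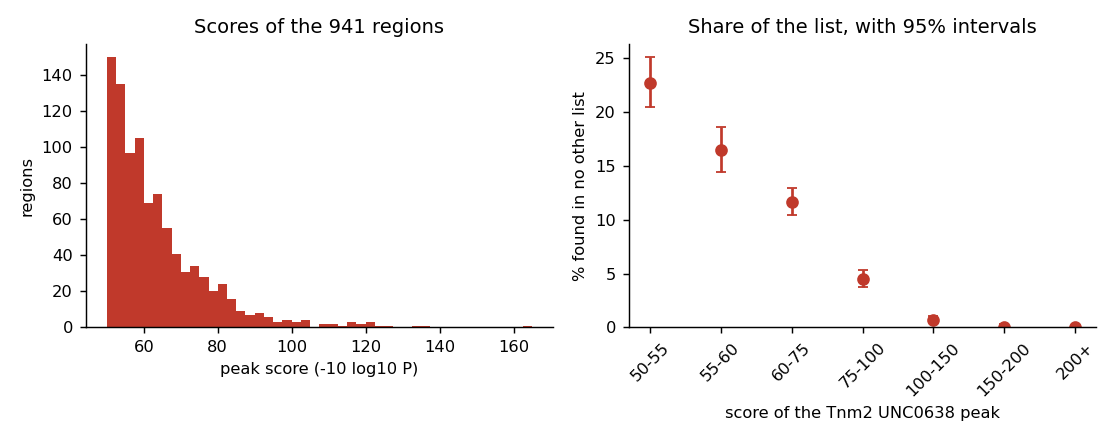
Left, the number of regions (y axis) by peak score, −10 log10 P (x axis), for the 941 regions. Right, the percentage of Tnm2 UNC0638 peaks found in no other list (y axis) by score range (x axis), with Wilson 95% intervals. The regions pile up at the cutoff of 50, and the share falls from 22.7% at 50 to 55 to 0.725% at 100 to 150.

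Member regions were narrower than other peaks of the list, with a median width of 691 bp against 1071 bp. Most of that gap went with score. At scores of 50 to 75 the medians were 669 bp for members and 724 bp for other peaks, and at 75 to 100 they were 864 and 863.5 bp. The regions found only in one of the other lists had median widths of 635.5 bp (CK1750 UNC0638), 528.5 bp (Tnm2 DMSO) and 500 bp (CK1750 DMSO). The widest member, 1721 bp at chr11:116757647-116759367 in an exon of BC018473, scored only 53.36, while the others of the 3 widest, Gm13456 (1704 bp) and a region 102.5 kb from Zeb1 (1596 bp), scored 162.51 and 111.56. Together the members covered 680 kb, or 2.97% of the length covered by Tnm2 UNC0638 peaks.

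Most members lay close to a peak of another list. The nearest peak of any of the 3 other lists was at a median distance of 2902 bp, and 306 members (32.5%) had one within 1 kb and 668 (71.0%) within 10 kb. The nearest Tnm2 DMSO peak was at a median of 4472 bp, the nearest CK1750 DMSO peak at 8241 bp and the nearest CK1750 UNC0638 peak at 8759 bp. A Tnm2 DMSO peak lay within 1 kb of 256 members (27.2%), within 10 kb of 610 (64.8%) and within 50 kb of 852 (90.5%). The regions found only in Tnm2 DMSO, only in CK1750 UNC0638 and only in CK1750 DMSO had a peak of another list within 10 kb in 63.5%, 73.0% and 59.9% of cases, so closeness of this kind was common to all 4 sets.

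**Figure D2:**
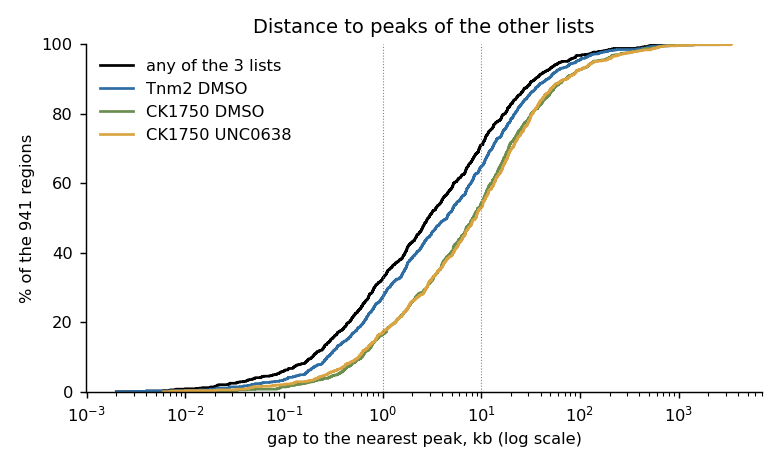
Percentage of the 941 regions (y axis) with a peak of each other list within a given gap in kb (x axis, log scale). Dotted lines mark 1 and 10 kb. The line for Tnm2 DMSO runs above those for both CK1750 lists, at 64.8% within 10 kb.

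The rule has its own edge. Of the members, 37 were separated from a peak of another list by 1 to 50 bp and 20 by 51 to 100 bp, and the smallest gaps were 2 bp (chr11:79788389-79789195, score 60.54), 3 bp at Lncpint and 4 bp by Ccser2 (chr14:36968855-36969383, score 57.09). On the other side, 10 Tnm2 UNC0638 peaks missed membership through a largest overlap of 1 to 50 bp and 16 through 51 to 100 bp. The smallest such overlap was 9 bp, for a peak at chr2:173242754-173243546 with a score of 73.46.

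Around the members, peaks of untreated Tnm2 were kept in shares near or below that of the whole list. By the rule no member overlaps a Tnm2 DMSO peak, so these shares are not independent of how members were chosen. A Tnm2 DMSO peak was counted once for each member it was nearest to. The nearest Tnm2 DMSO peak was itself overlapped by a Tnm2 UNC0638 peak for 132 of the 256 members that had one within 1 kb (51.6%, 45.5 to 57.6) and for 317 of 610 within 10 kb (52.0%, 48.0 to 55.9), beside 56.9% of all Tnm2 DMSO peaks. The interval within 1 kb contains 56.9%, and that within 10 kb lies below it. The median score of the nearest Tnm2 DMSO peaks within 10 kb was 110.2, beside 140.1 for the whole Tnm2 DMSO list. The part of score in the difference was not tested. Tnm2 DMSO peaks flanked 131 members (13.9%) on both sides within 5 kb and 358 on 1 side. Another Tnm2 UNC0638 peak lay within 10 kb of 501 members. Members seldom clustered with each other, with 81 that had another member within 10 kb and 282 within 100 kb. Whether a member next to an untreated peak is a separate peak or a moved edge cannot be told apart from the lists.

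Member regions were mainly intronic, as were the regions found only in each other list. The centre of a member fell in an intron in 545 cases (57.9%), between genes in 299 (31.8%) and in an exon in 97 (10.3%). Intron shares were 59.9%, 56.9% and 55.1% for regions found only in CK1750 UNC0638, Tnm2 DMSO and CK1750 DMSO, and 46.5% for other Tnm2 UNC0638 peaks. A promoter was overlapped by 158 members (16.8%, 14.5 to 19.3), whereas 54.0% of the other Tnm2 UNC0638 peaks overlapped one. Within score ranges the difference was smaller but present, since at scores of 50 to 75 the shares were 15.5% and 35.5% and at 75 to 100 they were 20.8% and 43.0%. The regions found only in CK1750 UNC0638, Tnm2 DMSO and CK1750 DMSO overlapped promoters in 18.9%, 15.7% and 20.1% of cases. With TSSs of protein-coding genes alone the share was 10.2% (96 regions). The median distance to a protein-coding TSS was 14.3 kb, and 216 members (23.0%) lay over 50 kb from one.

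**Figure D3:**
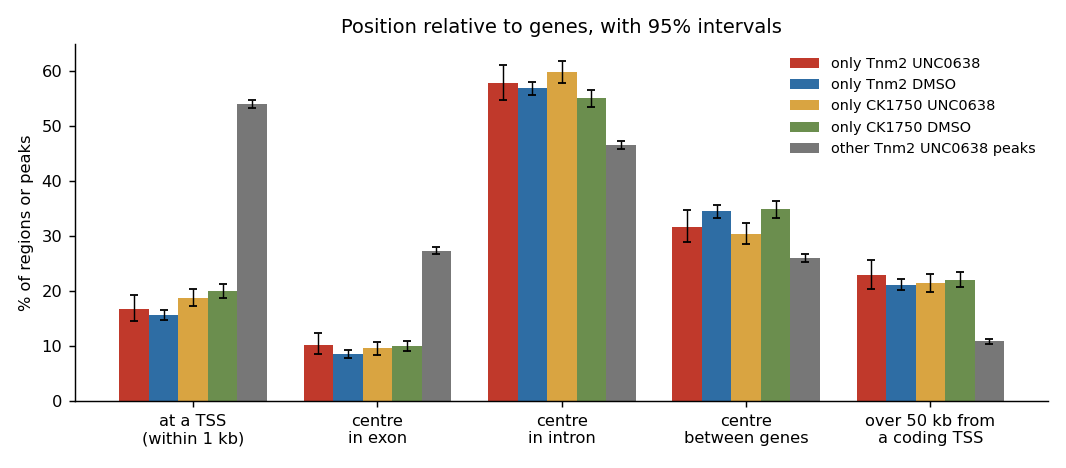
Percentage of regions or peaks (y axis) by position relative to genes (x axis), for the regions found in 1 list only and for the other Tnm2 UNC0638 peaks. Bars give shares and lines Wilson 95% intervals. The 4 single-list sets lie close together at promoters, between 15.7% and 20.1%, below the 54.0% of the other peaks.

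Members were less rich in CpG than other peaks. In the central 300 bp the median GC content was 50.3% for members and 55.3% for other Tnm2 UNC0638 peaks, and the ratio of observed to expected CpG was 0.148 against 0.384. Away from promoters, members had 50% GC and a CpG ratio of 0.139. Other peaks away from promoters and under a score of 100 had 50.3% GC and a CpG ratio of 0.175. With promoters included, the regions found only in CK1750 UNC0638, Tnm2 DMSO and CK1750 DMSO had 50%, 49.7% and 51% GC. Their CpG ratios were 0.164, 0.165 and 0.182. Repeat sequence made up a median of 12.1% of a member. The GC box GGGCGG was present in 67 members (7.12%) and in 32.3% of other Tnm2 UNC0638 peaks. The ETS motif CCGGAAG was present in 18 members (1.91%) and in 7.09% of those peaks. The CRE motif TGACGTCA was present in 0 of 941 members, which allows a share of up to 0.319%, and in 0.981% of those peaks. The regions found only in CK1750 UNC0638, Tnm2 DMSO and CK1750 DMSO had the GC box in 8.33%, 7.69% and 11.3%. Their ETS shares were 2.40%, 2.23% and 2.26%, and their CRE shares 0.249%, 0.107% and 0.208%. Other peaks away from promoters and under a score of 100 had ETS in 2.15% and CRE in 0.280%.

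The 13 motifs differ in length and in fixed letters, so their shares are compared between sets of regions and not between motifs. The TEAD motif GGAATG and the NKX2 motif CAAGTG were each matched in 170 members (18.1%). The AP-1 motif TGANTCA was matched in 133 (14.1%, 12.1 to 16.5) and the antioxidant response element (ARE) motif TGACNNNGC in 119 (12.6%). The letters AGATAA, bound by GATA factors, were present in 107 (11.4%), the CEBP motif TTGCNNAA in 105 (11.2%) and the SOX motif ATTGTT in 99 (10.5%). The RUNX motif TGTGGTT was matched in 67 members, the FOX motif TGTTTAC in 50 and the E-box CACGTG in 40. Among the 17848 other Tnm2 UNC0638 peaks the shares were 14.0% for TEAD, 13.7% for NKX2, 10.1% for AP-1, 14.1% for ARE, 8.65% for GATA, 8.35% for CEBP and 7.92% for SOX. Away from promoters the differences were smaller for AP-1, TEAD and NKX2. There, AP-1 was matched in 15.5% of members and 14.6% of other peaks under a score of 100, TEAD in 17.1% and 16.7%, and NKX2 in 18.3% and 17.7%. GATA matches, more frequent in members when promoters were included, were there less frequent, at 11.6% against 13.8%, and CEBP matches stayed more frequent, at 11.6% against 9.61%, with overlapping intervals for both. The GC box was less frequent in members there too, at 5.36% against 8.19%. With promoters included, the regions found only in CK1750 UNC0638, Tnm2 DMSO and CK1750 DMSO had TEAD matches in 18.4%, 16.5% and 16.4%. Their NKX2 shares were 18.5%, 18.1% and 16.7%, and their AP-1 shares 12.7%, 12.8% and 11.4%.

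**Figure D4:**
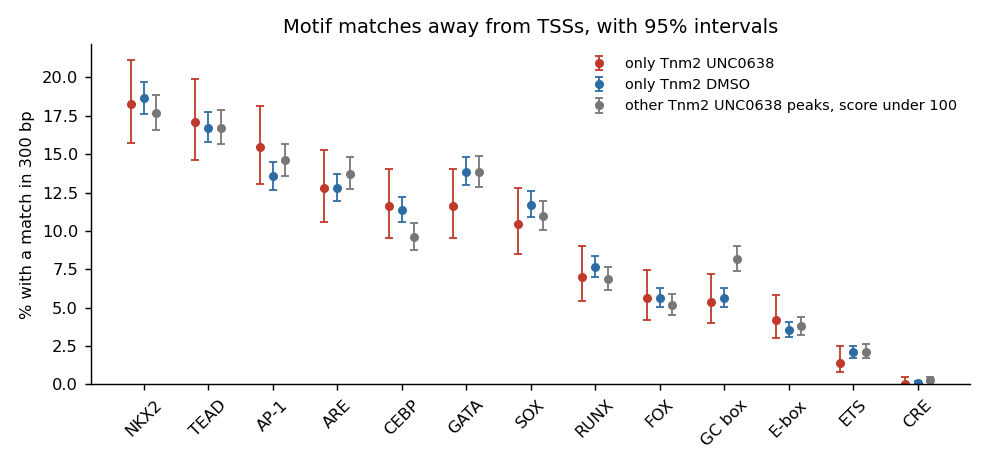
Percentage of regions with a motif match in the central 300 bp (y axis) for 13 motifs (x axis), away from promoters. Points give shares and lines Wilson 95% intervals for the regions found only in Tnm2 UNC0638, those found only in Tnm2 DMSO, and the other Tnm2 UNC0638 peaks under a score of 100. NKX2 and TEAD lead in each set, and AP-1 comes next except in the regions found only in Tnm2 DMSO, where GATA (13.9%) lies above AP-1 (13.5%). The motifs differ in length, which this order does not allow for.

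The highest-scoring member, at chr2:40555728-40557431 with a score of 162.51, lay in Gm13456, an annotated pseudogene. It was 427.6 kb from the nearest peak of another list, and its sequence aligned over its whole length to the mRNA of Eef1a1 at 95.3% identity. Eef1a1 encodes an elongation factor of translation and is among the most highly expressed genes of mammalian cells. It had 3 near-identical copies elsewhere in the genome, a copy being an alignment of at least 80% of the region at 95% identity or more.

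It was 1 of 25 members (2.66%, 1.81 to 3.89) centred in a pseudogene exon. The share was 0.124% (0.0423 to 0.365) among regions found only in CK1750 UNC0638, 0.351% in those only in Tnm2 DMSO, 0.546% in those only in CK1750 DMSO and 0.286% among other Tnm2 UNC0638 peaks. At scores of 50 to 75 it was 2.02% of members and 0.139% of other peaks, and at 75 to 100 it was 5.60% and 0.376%. Counted over whole lists, the share of peaks centred in a pseudogene exon was 0.404% (0.323 to 0.506) for Tnm2 UNC0638, 0.291% (0.236 to 0.357) for Tnm2 DMSO, 0.369% for CK1750 DMSO and 0.297% for CK1750 UNC0638, with intervals that overlap. Of those peaks, 32.9% (25 of 76) were in the Tnm2 UNC0638 list alone, 25.8% in the Tnm2 DMSO list alone, 20.8% in the CK1750 DMSO list alone and 4.11% in the CK1750 UNC0638 list alone.

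All 25 resembled the mRNA of a protein-coding gene, with alignments over 54.0% to 100% of the region at 86.1% to 100% identity, and 18 were most like a gene for a ribosomal protein or a translation factor. Eef1a1 was the closest gene for 6 of them and Rps6 for 2. Among the others, the region in Gm5835 (chr1:143093867-143094635, score 111.88) aligned to Rpl4 at 97.1% identity, that in Gm7964 (chr7:83755716-83756433, score 80.12) to Hnrnpk at 100% and that in Eif4a-ps4 (chr1:60704691-60705107, score 75.33) to Eif4a1 at 100%. The closest genes numbered 19, and each had a promoter peak in all 4 lists, as did 38.3% of all protein-coding genes. Eef1a1 and Hnrnpa2b1 also had a member within the gene itself, with scores of 59.22 and 58.7. The 25 regions stood apart from other peaks, at a median gap of 51.6 kb to the nearest peak of another list (2.34 to 558.2 kb), and 20 of them were 10 kb or more from any. A near-identical copy existed for 8 of the 25 and for 15 of the 941 (1.59%, 0.968 to 2.61), beside 1.33% of other Tnm2 UNC0638 peaks. The part of sequence similarity between copies in these peaks was not tested. Without the 25, the share of members at promoters was 14.5% instead of 16.8%.

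**Figure D5:**
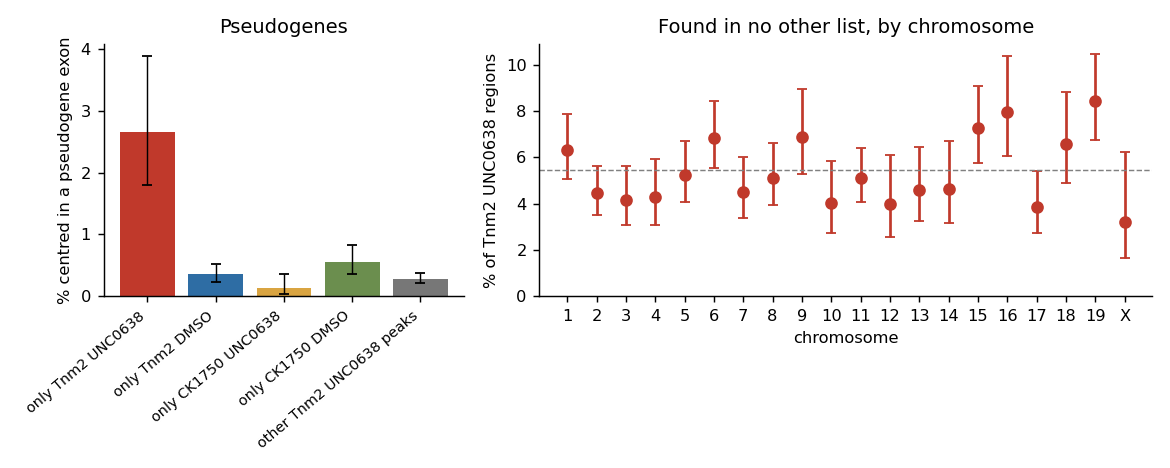
Left, percentage of regions or peaks centred in a pseudogene exon (y axis) for the single-list sets and for other Tnm2 UNC0638 peaks (x axis), with Wilson 95% intervals. Right, percentage of Tnm2 UNC0638 regions found in no other list (y axis) by chromosome (x axis), with the same intervals and a dashed line at 5.47%. The pseudogene share is 2.66% for regions found only in Tnm2 UNC0638 and at most 0.546% in the other sets shown. Chromosome 19 has the highest share by chromosome, at 8.43%.

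Apart from Gm13456, the top of the score range held no common kind of region. The 2nd and 3rd were at chr4:144972772-144973850 (score 135.37), in an exon of Vps13d, and at chr5:81023784-81024789 (score 134.98), in an intron of Adgrl3, a latrophilin of the adhesion G protein-coupled receptors. The Adgrl3 region lay 0.189 kb from a Tnm2 DMSO peak scoring 1715.36. Next came promoters of Dennd2d (chr3:106486729-106487774, score 125.1) and of Ctnnd1, the gene of the cadherin partner p120 catenin (chr2:84637337-84638701, score 124.28). An intron of Tnip1, an inhibitor of NF-kappaB signalling, followed (chr11:54959630-54960681, score 122.47), and then Lncpint (chr6:31102510-31103272, score 120.88), 3 bp from a peak of another list. The remaining 5 of the top 12 scored 116.6 to 120.03, and 1 of these was 57.2% repeat sequence (chr19:42698106-42699052). At Dennd2d and Ctnnd1 the promoters of the same gene carried further peaks in all 3 other lists.

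Promoters of protein-coding genes were overlapped by 96 members at 90 genes. For 51 of these 90 genes Tnm2 DMSO had a promoter peak at the same gene, outside the member region, where 48.2% of all protein-coding genes had one. For 33 of the 90 genes no other list had a promoter peak. Over all 21728 protein-coding genes, 47.2% had a promoter peak in no list and 39 had one in Tnm2 UNC0638 only. By score, the group of 33 opened with Pilra, an immune receptor (chr5:137835566-137836452, score 115.44), whose region had 2 near-identical copies in the genome. Slc4a9 (88.72), an anion transporter, Alpk3 (84.78), Cldn2 (81.18), a pore-forming claudin of tight junctions, Fam13a (79.76) and Fcna (79.05) came next, and Sftpb followed. Choosing genes that no other list marks is fixed by the rule, so these 33 are a description.

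Sftpb, which encodes surfactant protein B of alveolar type II cells, carried 2 members. One lay 0.127 kb upstream of the gene (chr6:72303792-72304482, score 72.58) and the other inside it (chr6:72306557-72307516, score 77.4), and no other list had a promoter peak there. The upstream and intronic sequences are printed above. Mmp13, a collagenase, had a member 0.292 kb upstream of its TSS (chr9:7271796-7272221) with a score of 51.28, close to the cutoff. Cldn2 also had 2 members, with scores of 81.18 and 51.14. Among members at protein-coding promoters the most isolated was at Slitrk5 (chr14:111675432-111676005, score 53.31), 70.3% GC and 695 kb from any other list's peak.

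A list of 10 genes carried over from earlier work on these data, some of which the study names as regulated by G9a, held Anxa10, Ctse, Lcp1, Ly6a, Mcpt2, Mcpt4, Mcpt8, Mmp10, Mmp13 and Wnt7a. Within 50 kb of them lay 4 members at 3 genes, where 7.29% of all 21728 protein-coding genes had one. Anxa10, an annexin of gastric epithelium, had 2 intronic members at chr8:62100610-62100974 (score 66.11) and chr8:62121081-62121635 (score 62.27). Between them lay a Tnm2 DMSO peak (score 55.05), 1.61 kb from the second, which no Tnm2 UNC0638 peak overlapped. CK1750 DMSO also had a peak there (score 53.68), 1.63 kb from the second. Wnt7a, a secreted ligand, had 1 member in an intron (chr6:91382686-91383383, score 53.85), 5.25 kb from a Tnm2 DMSO peak scoring 491.33 that a Tnm2 UNC0638 peak overlapped. Mmp13 had the one given above, 86.1 kb from the nearest peak of another list. These genes were chosen with results of this study known, so the count is not independent evidence, and no member here scored above 66.11.

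Over 18 gene lists, 62 of 536 genes had a member within 50 kb (11.6%, 9.13 to 14.6). Since genes with many peaks have more chances, the share among genes with any Tnm2 UNC0638 peak within 50 kb is the closer comparison, and it was 15.0% for the lists and 10.5% for all protein-coding genes. The lists are of chosen, well-studied genes and no list was tested against others. Regions found only in CK1750 UNC0638 lay near 143 of the 536 listed genes and 3804 of all 21728 protein-coding genes. The genes of the lung lineage had a member near 6 of 43: Foxp1, Gata6, Grhl2, Sftpb, Napsa and Scgb1a1. Regions found only in CK1750 UNC0638 lay near 12 of the same 43. Grhl2, an epithelial factor, had the highest-scoring of the lung lineage members at 29.5 kb (chr15:37202848-37203583, score 108.46). Foxp1, a forkhead factor of lung development, had 3 members, at chr6:98919465-98920364 (97.6), chr6:99120515-99121341 (78.91) and chr6:99400997-99401623 (63.38). Scgb1a1, the secretoglobin of club cells, had 3 at 20.5 to 38.6 kb, all in introns of the neighbouring Ahnak. Gata6, a factor of endoderm development, had 1 (score 64.08).

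Of the gastrointestinal genes 2 of 24 had a member, Anxa10 and Pdx1, the latter at 35.4 kb with a score of 55.6. The H3K9 methylation enzymes had 1 of 19, a region at a score of 50.03 that lay 14.5 kb from Ehmt2, which encodes G9a, within the neighbouring C2. None of 17 AP-1 family genes had a member, which allows a share of up to 17.6%, and none of 28 germline genes did (up to 10.7%). The epithelial-mesenchymal list had 2 of 24 (Cdh1 and Twist2), the interferon list 1 of 32 (Irf2) and the cell cycle and p53 list 2 of 31 (Btg2 and Trp53).

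The remaining lists are given beside the 7.29% of all protein-coding genes, and the 10.5% of those with any Tnm2 UNC0638 peak within 50 kb. Among listed genes with such a peak, the shares were 19.0% for YAP and TEAD, 20.7% for transforming growth factor beta and BMP and 13.3% for Wnt. They were 13.5% for extracellular matrix, 22.6% for axon guidance, 23.1% for adhesion and 19.0% for the inflammatory list. Regions found only in CK1750 UNC0638 lay near 6 of 23 YAP and TEAD genes, 8 of 35 transforming growth factor beta and BMP genes and 11 of 40 Wnt genes. They lay near 14 of 54 matrix, 14 of 47 axon guidance, 10 of 31 adhesion and 9 of 30 inflammatory genes, and 3804 of all 21728 protein-coding genes. Nearness to these lists was thus not particular to members. The YAP and TEAD list had 4 of 23, with Nuak2 at chr1:132333437-132334677 (score 98.79), Amotl2 (72.5), Crim1 (53.21) and Tead3 (53.17). The transforming growth factor beta and BMP list had 6 of 35, with the receptor genes Tgfbr2 and Acvr1, the inhibitors Smad7 and Ski, and the matrix latent-ligand binders Ltbp1 and Ltbp2. Of the 2 members near Tgfbr2, 1 was in the pseudogene Gm9385. The Wnt list had 4 of 40 (Tcf7l2, Lrp5, Apc and Wnt7a), with 3 members each at Tcf7l2, the nuclear effector, and Lrp5, a coreceptor. The extracellular matrix list had 5 of 54 (Fbln2, Mmp19, Lamb3, Mmp14 and Mmp13). The axon guidance list had 7 of 47 (Epha4, Plxnd1, Plxna4, Ephb3, Ntn1, Plxna2 and Efna1), the adhesion list 6 of 31 and the inflammatory list 4 of 30.

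In the metabolism and Nrf2 list 8 of 27 genes had a member within 50 kb (29.6%, 15.9 to 48.5), the share nearest to that of the 10-gene list (30%, 10.8 to 60.3). Among the genes with any Tnm2 UNC0638 peak nearby it was 30.8%, beside 37.5% in the 10-gene list and 10.5% over all protein-coding genes. They were Gsta1 and Gsta4, glutathione transferases, Gclm, a subunit of glutathione synthesis, Fasn, Scd1 and Scd2 of fatty acid synthesis, Insig1 of sterol control and Pparg, a lipid receptor. Gsta1 and Gsta4 are neighbours and share 1 region (chr9:78225632-78226745, score 81.46), and Scd1 and Scd2 are neighbours with 1 each (50.79 and 68.27), so the genes are not independent. Regions found only in CK1750 UNC0638 lay near 12 of the same 27 genes, and near 3804 of all 21728 protein-coding genes, so nearness to this list was not particular to members. The list is 1 of 18 that were read.

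The members had 808 nearest protein-coding genes, of which 697 were nearest to 1 member, 92 to 2 and 19 to 3 or more. In Tnm2 DMSO 594 of the 808 genes (73.5%) had a promoter peak, beside 48.2% of all protein-coding genes. In all 4 lists 61.3% had one, against 38.3%, and 18.2% had none in any list, against 47.2%. For the nearest genes of the regions found only in CK1750 UNC0638 and only in Tnm2 DMSO, the shares with a Tnm2 DMSO promoter peak were alike, at 71.6% and 76.0%. Slc22a23, an organic ion transporter gene, was nearest to 5 members with scores of 51.21 to 63.57, of which 4 lay inside the gene. Ranbp3l was nearest to 4 within 26.5 kb, with scores of 51.83 to 74.41, and of the 4 lists Tnm2 DMSO alone had a promoter peak there. The 17 genes with 3 members were Bcl6, Cmip, Ets1, Fam43a, Foxp1, Klhdc10, Lrp5, Mlph, Pam, Pdlim5, Rbm47, Scgb1a1, Sgms1, Tbxas1, Tcf7l2, Ywhaz and Zmiz1. At 15 of the 17 the promoter was marked in all 4 lists. At Bcl6, a transcriptional repressor, and Ets1, an ETS factor, the highest member scores were 82.35 and 84.13.

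Members were found on all 20 chromosomes and their share of Tnm2 UNC0638 regions ran from 3.23% on X (8 of 248) to 8.43% on chromosome 19 (73 of 866, 6.76 to 10.5). Chromosome 16 had 7.95% (6.05 to 10.4), chromosome 15 had 7.26% (5.78 to 9.09) and chromosome 6 had 6.86% (5.56 to 8.43). Over all chromosomes the share was 5.47%, below the intervals of these 4, and above that of chromosome 17 (3.85%, 2.73 to 5.41). On chromosome 19 25.6% of Tnm2 DMSO regions were found only in Tnm2 DMSO, beside 23.7% over all chromosomes, and 6.12% of CK1750 UNC0638 regions only in that list, beside 10.5%. Copy number was not measured here.

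Set apart from peaks of any other list by 10 kb or more were 273 members. Of these 22.3% overlapped a promoter and 36.6% lay over 50 kb from a protein-coding TSS, against 14.1% and 17.6% for the 306 within 1 kb of one. Every member centred in a pseudogene exon counted as at a promoter. Such members were 20 of the 273 and 0 of the 306, and their part in the promoter difference was not tested. The most isolated lay in an intron of the protocadherin gene Pcdh9 (chr14:93069937-93070435, score 59.83), 2585 kb away. Another, at chr9:17030867-17031180 (score 82.56), was 814 kb away and had 2 near-identical copies.

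Of the 17214 regions of the 4 joined lists that held a Tnm2 UNC0638 peak, 1553 (9.02%) held no Tnm2 DMSO peak, and the 941 members were the part of these that held no CK1750 peak either. Joining the Tnm2 lists alone, so that CK1750 peaks bridge no regions, gave 1654 regions with a Tnm2 UNC0638 peak only.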

How the data were processed

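H3K27ac chromatin immunoprecipitation libraries of CK1750 and Tnm2 cells were aligned by the authors to mm10 (bowtie2), and MACS 1.4.2 was run with P up to 1e-05. The deposited lists give chromosome, start, end and a score, which is −10 log10 of the P value. A score grows with depth, so scores were compared within a list. Which libraries entered a list, and whether input DNA was the control, are not given in the sources used here. Intervals were merged in Python 3.11.15 with numpy 2.4.6 and tested on simulated lists. Genes came from GENCODE M 21 and sequence from GRCm38. Copies were sought with minimap2 2.31 and mRNA matches of pseudogene regions with BLAST 2.17.0. Named regions were, by rule, the 12 highest scores, the 6 highest at coding promoters, the widest, most isolated and closest, and those near listed genes. Sftpb, other promoter genes beyond the 6 and the pseudogene regions were named after their values were seen. The members, gene lists and rules were chosen with earlier results of these data known. One of the 18 gene lists and 1 region are not reported here. No test between conditions was possible with 1 list a group. Groups followed the labels' line, drug and antibody. Alternatives were other score minimums, list sets, overlap rules, windows and region sets.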

Additional observations from a re-analysis of the deposited data

How the results depend on the processing

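Of 60 values under alternatives, 29 stayed within the main value's interval, or within 1.5 times a count, and 31 moved. With members scoring at least 100, 25 regions remained, with 36% at promoters, 72% within 10 kb of a Tnm2 DMSO peak, 12% with AP-1, 80% of nearest genes marked in Tnm2 DMSO and 1 listed gene. With that minimum in all lists there were 148 regions, 19.6% at promoters, 54.1% within 10 kb, 67.9% of nearest genes marked and 17 listed genes. With equal numbers of top peaks per list there were 2070 regions, 52.2% within 10 kb, 65.0% marked and 125 listed genes. With the Tnm2 lists joined without CK1750 there were 1654 regions, 19.7% at promoters and 118 listed genes, and with a reciprocal overlap of 50% there were 2213 regions. Without members within 1 kb of another list's peak, 50.4% lay within 10 kb and 70.0% were marked. A promoter window of 2.5 kb gave 26.6% at promoters and 76.5% marked, and coding TSSs alone 10.2%. Windows of 5 and 50 kb gave 52.0% and 90.5%, whole regions a GC content of 48.9%, central 200 and 500 bp 9.14% and 22.3% with AP-1, and 10 kb around genes 36 listed genes. Leaving out the pseudogene members, an alternative chosen after seeing the data, gave 14.5% at promoters.

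No paired analysis was possible because each group had 1 pooled list, so single replicates were not left out either. The depth behind the lists is unknown. Of the members, 51.8% scored under 60, near the cutoff of 50, where membership rests on small differences in signal that the lists do not give.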
